A study of Canis lupus familiaris with 89 samples.

Results

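The MHC class I antigen presentation genes described here are 7 genes chosen by name: PSMB8, LAP3, TAP1, TAPBP, B2M, NLRC5 and IRF1. They are 7 of 26678 genes with at least 1 read, and each of them passed the filter on low counts, which left 16806 genes to test. Polyadenylated RNA was sequenced from 89 pieces of mammary gland of 16 dogs, and each dog gave tissue of every class. The malignant class held 22 libraries (3 In Situ Carcinoma, 4 Mixed Carcinoma, 15 Carcinoma), the benign class 41 (18 Complex Adenoma, 23 Adenoma) and the normal class 26 (4 Atypia, 6 Duct Ectasia, 14 Lobular Hyperplasia and 2 with the histology type Normal). No treatment or transgene is recorded, the dogs were of several breeds, and their ages are not stated. The design addresses how gene expression differs between normal, benign and malignant tissue of the same animal. Lesions of 1 dog share that animal, so that the dog, not the library, is the independent unit. The fits below carry the dog as a block, except where an alternative without it is named. Libraries of the same type in 1 dog still enter the fits as separate samples.

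MHC class I molecules show peptides from inside the cell to CD8 T cells. The proteasome and peptidases cut proteins into peptides, the TAP transporter carries these into the endoplasmic reticulum, and tapasin helps to load them onto a heavy chain paired with beta-2 microglobulin. Interferon gamma, made by T cells and NK cells, raises this whole set of genes, in part through the transcription factor IRF1 and the coactivator NLRC5. Loss of class I components is known from human tumors. In whole tissue these genes are read both from epithelium and from leukocytes, and fewer cells of a type and less RNA per cell cannot be told apart. The class I heavy chain genes and TAP2 were not analysed here.

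Gene reads per library ran from 6.09 M to 68.4 M, with a median of 36.8 M, and no pair of libraries held identical counts. RNA integrity numbers were known for 81 libraries, with a median of 9.6 in the malignant, 9.25 in the benign and 8.1 in the normal class. Marker sums differed between classes as well. The skeletal muscle score, a mean of centred log2 levels over its markers, exceeded 3 in 2 malignant, 2 benign and 8 normal libraries. The adipocyte score had a median of -0.20 in the malignant, -0.43 in the benign and 0.72 in the normal class. Markers of luminal epithelium were detected throughout, with all 8 measured markers at a median of at least 1 CPM (reads scaled to library size).

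Levels are given as CPM, the reads of a gene scaled to a common library size by TMM. CPM does not take account of gene length, so a level is compared between libraries and never between genes. The in situ carcinomas had the lowest mean log2 level of all 9 histology types for each of the 7 genes. Duct ectasia had the highest for 5 of them (B2M, TAP1, TAPBP, NLRC5 and LAP3), and the 2 libraries of the type Normal had the highest for PSMB8 and IRF1.

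PSMB8, an interferon-inducible catalytic subunit of the immunoproteasome, ran from 5.67 to 167 CPM over the 89 libraries. Its 3 in situ carcinomas had 9.57, 21.2 and 50.9 CPM. The 4 mixed carcinomas lay between 23.5 and 114 CPM (median 53.1), and the 15 carcinomas between 5.67 and 118 CPM (median 48.3). Complex adenomas had a median of 49.3 CPM (21.3 to 85.5) and adenomas one of 47.3 CPM (12.3 to 111). In the normal class the medians were 40.5 CPM in atypia, 76.8 CPM in duct ectasia and 72.9 CPM in lobular hyperplasia, and the 2 libraries of the type Normal had 72.3 and 124 CPM. All 3 in situ lesions lay below all 6 duct ectasias and below both libraries of the type Normal. The lower 2 also lay below every atypia, complex adenoma and mixed carcinoma, but not below every carcinoma, adenoma or lobular hyperplasia.

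LAP3, a leucine aminopeptidase of the cytosol that trims peptides, varied least of the 7 genes, with an SD of 0.38 on the log2 scale. It had 63.6, 75.8 and 109 CPM in the in situ carcinomas. The first 2 of these were the lowest LAP3 values of all 89 libraries. Medians of the other types ran from 123 CPM in mixed carcinoma and 174 CPM in carcinoma through 142 CPM in complex adenoma and 168 CPM in adenoma to 144 CPM in atypia, 158 CPM in duct ectasia and 138 CPM in lobular hyperplasia. The ranges of these types all overlapped, so that the order of their medians was not separated by the spread between libraries.

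TAP1, a subunit of the peptide transporter, had 33.4, 50.3 and 66.9 CPM in the in situ carcinomas. It ranged from 26.7 to 173 CPM in carcinoma (median 66.8) and from 80.3 to 128 CPM in duct ectasia (median 99.2). All 6 duct ectasias lay above all 3 in situ lesions, and above the medians of carcinoma, complex adenoma (61.8 CPM), adenoma (57.6 CPM) and lobular hyperplasia (71.9 CPM). TAPBP, which encodes tapasin, had 113, 116 and 154 CPM in the in situ carcinomas and a median of 220 CPM in duct ectasia. The TAPBP medians of the other types with at least 3 libraries lay in the narrow span from 148 CPM in lobular hyperplasia to 158 CPM in atypia.

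B2M, the light chain of every class I molecule, had 1152, 1246 and 5879 CPM in the in situ carcinomas. The lower 2 were the lowest B2M values of all 89 libraries, and the next lowest was an adenoma of dog 36 with 1507 CPM. Carcinomas had a median of 5632 CPM (1648 to 13504), complex adenomas one of 4900 CPM (2448 to 8646) and adenomas one of 5251 CPM (1507 to 17922). The median was 8641 CPM in duct ectasia and 5182 CPM in lobular hyperplasia. The in situ lesion of dog 83 lay near the middle of the series, at place 57 from the lowest.

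NLRC5, the coactivator of class I genes, had the widest spread of the 7 genes within the malignant class (SD 1.22 on the log2 scale, n = 22). It had 12.3, 15.9 and 55.4 CPM in the in situ carcinomas, and 6.98 to 97.5 CPM in mixed carcinoma. Carcinomas reached from 16.2 to 208 CPM with a median of 64.4 CPM, against 43.0 CPM in adenoma and 48.6 CPM in lobular hyperplasia. The 2 highest NLRC5 values of the series, 208 and 162 CPM, were both carcinomas of dog 54, the dog that also gave the in situ lesion with 12.3 CPM. IRF1, the transcription factor that drives interferon-responsive genes, had 32.3, 46.1 and 81.9 CPM in the in situ carcinomas. Its median was 91.9 CPM in carcinoma, 76.8 CPM in complex adenoma and 79.9 CPM in adenoma. It was 141 CPM in duct ectasia and 120 CPM in lobular hyperplasia, and the 2 libraries of the type Normal had 204 and 385 CPM.

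**Figure D1:**
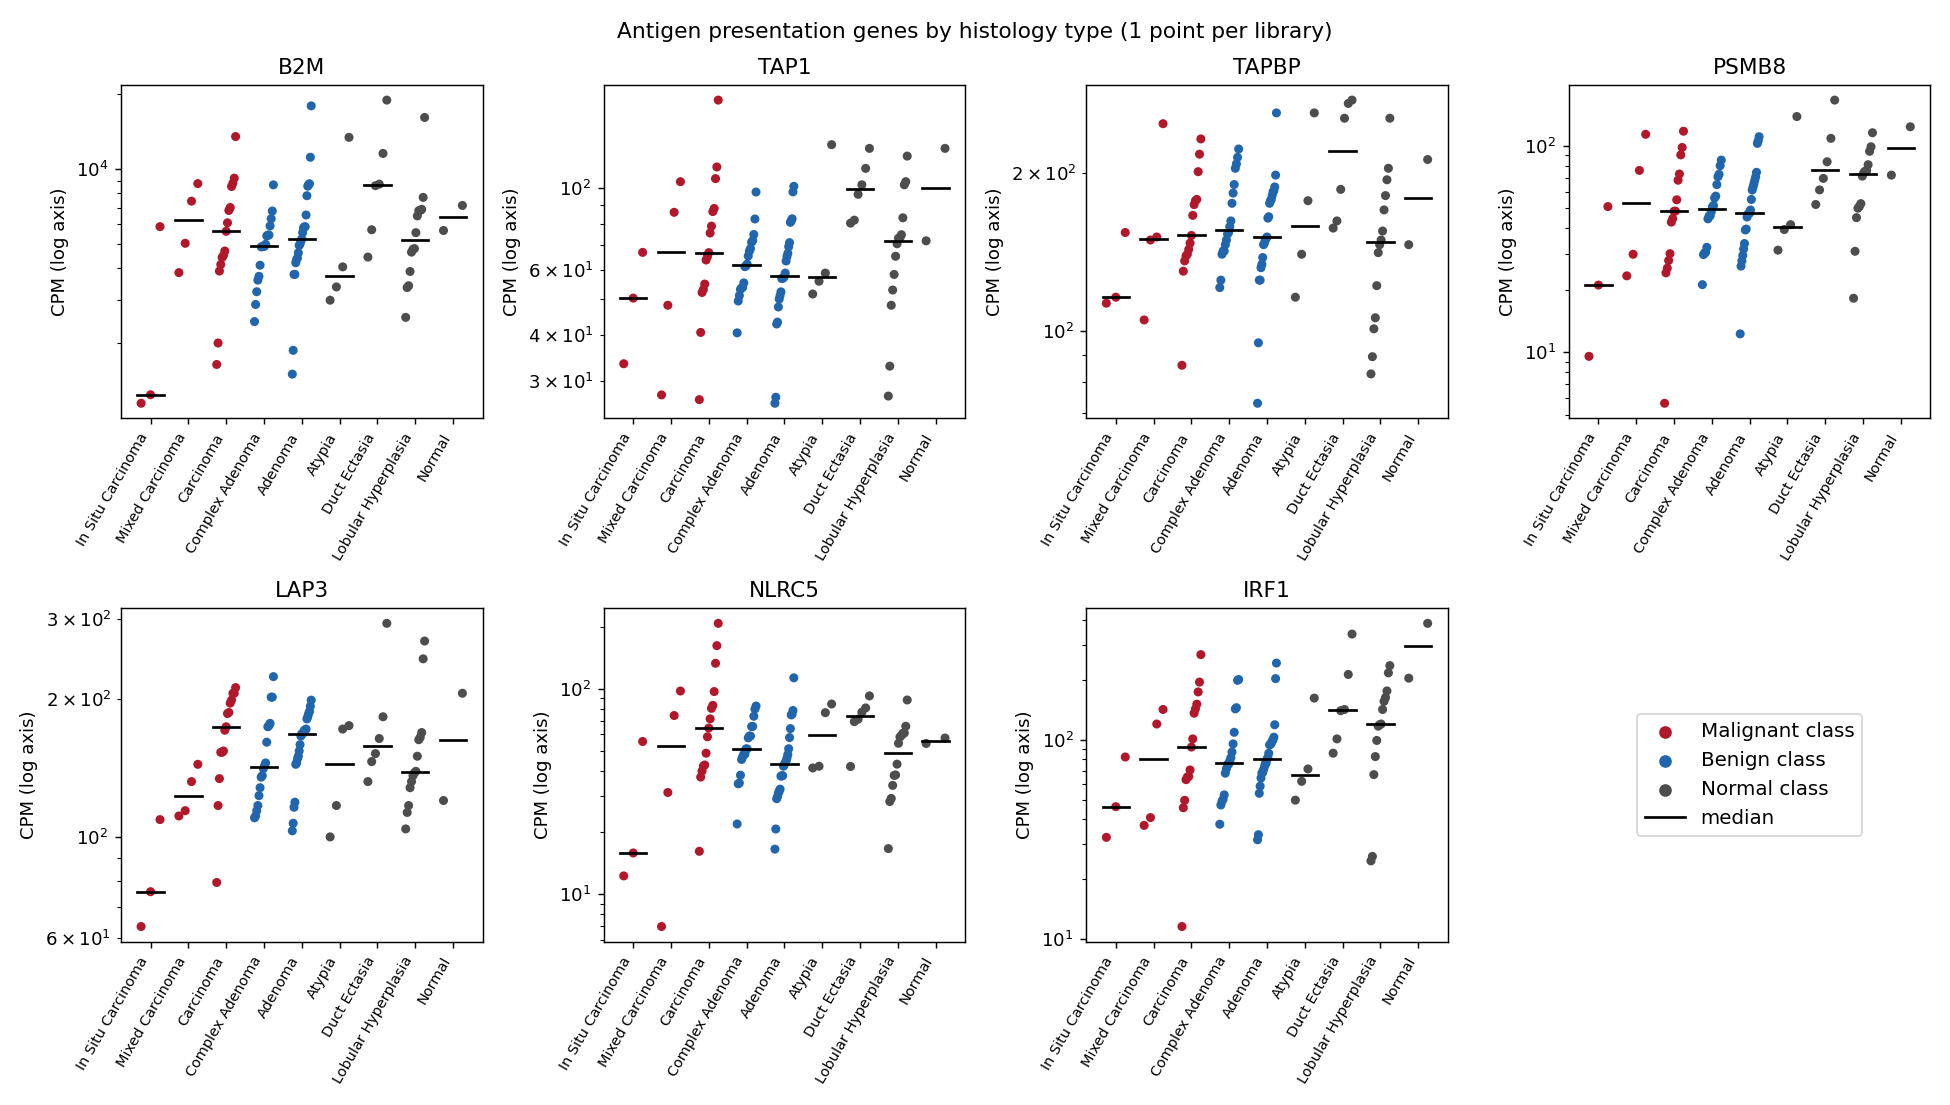
Level of each gene in each of the 89 libraries, in CPM on a log axis, by histology type, with a bar at the median. In situ carcinomas hold the 2 lowest B2M values (1152 and 1246 CPM) and the 2 lowest LAP3 values (63.6 and 75.8 CPM), while the in situ lesion of dog 83 lies among the other types.

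The 3 in situ lesions were set beside the other libraries of their own dogs. In dog 13 all 7 genes were lower in the lesion than in each of the 5 other libraries, which were 3 benign tumors and 2 of the normal class. B2M had 1246 CPM in the lesion, against 5562 to 8646 CPM in the rest of the dog, a log2 difference of -2.43 from their mean. PSMB8 had 9.57 CPM in the lesion and 45.8 to 124 CPM in the others (log2 difference -2.80). The 2 sets did not overlap for any of the 7 genes, although 22.6% of all 16806 genes were also below all other libraries of dog 13.

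NLRC5 had 15.9 CPM in the dog 13 lesion and 42.0 to 82.4 CPM in the others, IRF1 had 32.3 CPM in the lesion and 67.9 to 385 CPM in the others, and LAP3 had 63.6 CPM against 135 to 206 CPM. TAP1 had 33.4 CPM in the lesion and 57.1 to 128 CPM in the others. TAPBP differed least, with 116 CPM in the lesion and 146 to 184 CPM in the others (log2 difference -0.48). The library also differed from the rest of the dog in its epithelial markers. KRT18, a keratin of luminal epithelium, had 35.4 CPM in the lesion and 382 to 1724 CPM in the others, and 5 of 8 luminal markers were below all other libraries of the dog, while EPCAM, a surface protein of epithelium, had 1951 CPM in the lesion and 815 to 3196 CPM in the others. Of 10 pan leukocyte markers 9 were below all others of the dog, and the part of either cell content in the class I values was not tested.

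In dog 54 all 7 genes were again lower in the lesion than in each of the 8 other libraries, 3 of which were carcinomas. B2M had 1152 CPM in the lesion and 2982 to 8736 CPM in the others (log2 difference -2.19). NLRC5 had 12.3 CPM in the lesion and 41.2 to 208 CPM in the others (log2 difference -2.59). The lesion stood below all 3 carcinomas, all 3 benign tumors and both atypias of the dog for each gene.

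The margins in dog 54 were wide for LAP3, with 75.8 CPM in the lesion and 99.9 to 212 CPM in the others, and for PSMB8, with 21.2 CPM against 31.3 to 118 CPM. They were small for TAP1, with 50.3 CPM in the lesion and 51.6 CPM in the lowest other library, and for TAPBP, with 113 CPM and 116 CPM. Of all 16806 genes, 14.6% were below all other libraries of dog 54. PTPRC, the common leukocyte antigen, had 16.6 CPM in the lesion and 48.5 to 288 CPM in the others, and all 11 macrophage markers were below all others. KRT18 had 643 CPM in this lesion and 201 to 631 CPM in the others, and 0 of 8 luminal epithelium markers were below all others of the dog. The part of leukocyte content in the class I values was not tested, and the RNA integrity number of the lesion, 6.9, was the lowest of the dog.

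For the 7 genes the dog 83 lesion differed less from the rest of its dog than the lesions of dogs 13 and 54 did. TAP1 (66.9 CPM in the lesion, 74.7 to 104 CPM in the 3 others) and PSMB8 (50.9 CPM in the lesion, 63.4 to 99.2 CPM in the others) were below all other libraries, that is 2 of 7 genes, beside 14.3% of all genes. B2M had 5879 CPM in the lesion and 4773 to 17922 CPM in the others. NLRC5 had 55.4 CPM in the lesion and 43.0 to 60.9 CPM in the others, inside their range. Of 8 luminal epithelium markers 5 were below all others here too, with a median log2 difference of -0.39 over the 8, against -1.65 in dog 13. KRT18 had 664 CPM in the lesion and 744 to 1589 CPM in the others, and EPCAM had 1296 CPM against 1616 to 1752 CPM. The part of epithelial content in the class I values was not tested. A lobular hyperplasia among the other libraries of dog 83 had an RNA integrity number of 4.4, the lowest known in the series. Another had a skeletal muscle score of 4.91, and no RNA integrity number was known for the lesion. PTPRC was higher in this lesion (53.5 CPM) than in all 3 others (17.8 to 46.6 CPM). PTPRC was thus below all others in the dog 54 lesion and above all others in that of dog 83. In the dog 13 lesion it had 37.4 CPM, inside the 32.3 to 190 CPM of the others, unlike most of its list. Of 10 pan leukocyte markers, 9, 6 and 0 were below all others in dogs 13, 54 and 83.

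**Figure D2:**
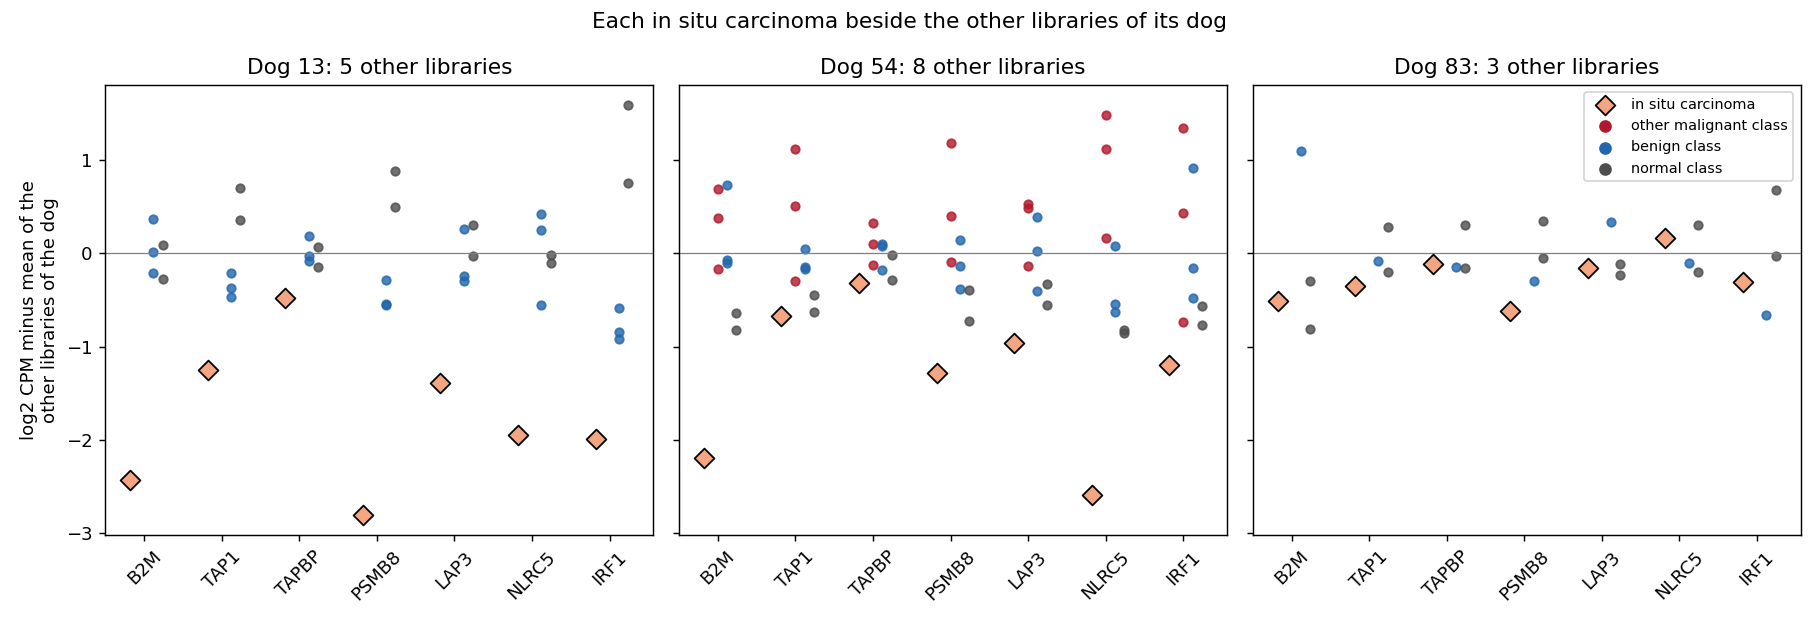
Each in situ carcinoma (diamond) and the other libraries of its dog (circles, by class), as log2 CPM minus the mean of those other libraries, for the 7 genes. The diamonds of dogs 13 and 54 lie below every circle, with B2M at -2.43 and -2.19, while that of dog 83 lies among its 3 circles for 5 of 7 genes.

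Related genes of the pathway varied in these lesions. PSMB9, an immunoproteasome subunit whose human gene lies beside TAP1, had 17.9 CPM in the dog 13 lesion, against 45.2 to 256 CPM in the other libraries of the dog. It had 44.3 CPM in the dog 54 lesion and 36.1 to 168 CPM in the others, inside their range. PSMB5, the constitutive subunit that PSMB8 replaces in the immunoproteasome, had 50.1 CPM in the dog 13 lesion, above 4 of the 5 others, while PSMB6, the one PSMB9 replaces, had 15.6 CPM there, below all 5 others (16.5 to 56.5 CPM). In the dog 54 lesion PSMB5 had 38.5 CPM, above all 8 others (24.4 to 36.1 CPM), and PSMB6 had 16.5 CPM, inside their 9.13 to 19.8 CPM. In the dog 83 lesion PSMB9 (64.2 CPM), PSMB5 (48.1 CPM) and PSMB6 (31.2 CPM) all lay inside the range of the others.

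Of the 19 measured genes of peptide supply and loading other than the 7, 7 were below all other libraries in dog 13, 6 in dog 54 and 3 in dog 83. The medians of their log2 differences were -0.15, -0.06 and -0.05. Of all 16806 genes 22.6%, 14.6% and 14.3% were below all others in dogs 13, 54 and 83, which is the background for the counts here. Of 23 measured interferon-induced genes 19, 21 and 9 were below all others in dogs 13, 54 and 83, with medians of -1.36, -1.57 and -0.36. Of 8 measured class II genes 6, 5 and 3 were below all others in dogs 13, 54 and 83. HLA-DRA, a class II chain, was among them in each dog, with 276 CPM in the dog 83 lesion and 290 to 660 CPM in the others. CD74, the class II invariant chain, had 417 CPM in the dog 13 lesion and 1508 to 2482 CPM in the others, and 464 CPM in the dog 54 lesion and 658 to 2348 CPM in the others. In dog 83 CD74 had 1012 CPM in the lesion, within the 881 to 2151 CPM of the others.

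In the fit of the 9 histology types, the in situ carcinomas were compared with carcinomas by edgeR's quasi-likelihood test, with adjustment over all 16806 genes. All 7 log2 differences were negative, but none passed an adjusted p of 0.05 (0 of 7, beside 0.0119% of all genes). All 7 had an unadjusted p under 0.05, as did 5.68% of all genes. LAP3 differed by -0.97 ± 0.246 on the log2 scale (SE, unadjusted p = 0.000188, adjusted p = 0.313 by edgeR) and B2M by -2.0 ± 0.511 (adjusted p = 0.313). The other differences were -1.82 for NLRC5, -1.51 for PSMB8, -1.26 for IRF1, -0.94 for TAP1 and -0.43 for TAPBP.

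DESeq2 on the same counts called 3 of these 7, B2M, NLRC5 and LAP3, as lower in situ, beside 55 of all genes. Without the dog 83 lesion edgeR called B2M, NLRC5 and LAP3 too, at log2 changes of -2.55, -2.74 and -1.30. It then called 30 of all genes. Without dog 47, which gave no in situ lesion, edgeR called 1, B2M, at -2.12. Over the fits with a dog or an in situ lesion left out, 0 to 30 of all genes were called. Dog 54 alone gave both an in situ carcinoma and carcinomas. The comparison therefore rests largely on indirect differences within dogs, in which each type is set against other tissue types of its own dogs. Within that dog the lesion minus the mean of its carcinomas was -2.49 for B2M and -3.51 for NLRC5 on the log2 scale. Median log2 differences in the same comparison were -1.26 over the 7 genes, -1.38 over 23 interferon-induced genes, -1.39 over 8 class II genes and -1.37 over 13 T and NK cell markers, beside 0.02 over all genes tested.

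Against adenoma, all 3 dogs with an in situ lesion gave both types. B2M was lower in the lesion in 3 of 3 dogs, by log2 differences of -2.22 in dog 13, -2.52 in dog 54 and -1.61 in dog 83. The dog 83 value rests on an adenoma with 17922 CPM, the highest B2M value of all adenomas. The lesion of that dog had 5879 CPM, at place 57 from the lowest of the series. LAP3, PSMB8 and TAP1 were also lower in 3 of 3 dogs, while NLRC5, IRF1 and TAPBP were lower in 2 of 3. In edgeR's quasi-likelihood test no member was called (0 of 7, beside 0.0476% of all genes), with B2M at -1.74 ± 0.486 (adjusted p = 0.198) and LAP3 at -0.88 ± 0.237 (adjusted p = 0.181). The unadjusted p was under 0.05 for 6 of 7 and for 8.45% of all genes. DESeq2 called 2 members, B2M and LAP3, beside 86 of all genes. Without the dog 83 lesion edgeR also called B2M and LAP3, at log2 changes of -2.33 and -1.23, beside 133 of all genes.

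Against lobular hyperplasia, the in situ carcinomas gave 7 negative log2 differences, from -1.68 for B2M (adjusted p = 0.263 by edgeR) to -0.20 for TAPBP. None was called (0 of 7, beside 0% of all genes), and 6 of 7 had an unadjusted p under 0.05, as did 8.41% of all genes. DESeq2 called 1 member, B2M, beside 68 of all genes. Without the dog 83 lesion edgeR called 1 member, LAP3, beside 74 of all genes. Without all libraries of dog 83 it called 2, B2M and LAP3. Over the fits with a dog or an in situ lesion left out, 0 to 74 of all genes were called. Of the 2 dogs with both types, B2M was lower in the in situ lesion in 1, with log2 differences of -2.16 and 0.04. The 3 in situ comparisons share the same 3 libraries and are not independent of each other.

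In the other comparisons of histology types no member was called. Carcinoma against adenoma gave 7 positive values, led by NLRC5 at 0.64 ± 0.246 (SE, unadjusted p = 0.0114, adjusted p = 0.644 by edgeR). TAP1 followed at 0.32 ± 0.159. By edgeR 0 of 7 were called, beside 0% of all genes, with 2 at an unadjusted p under 0.05, as were 6.79% of all genes, and DESeq2 called 0. NLRC5 was higher in carcinoma in 6 of the 9 dogs with both types, and TAP1 in 7 of 9. The T and NK cell markers had a median log2 difference of 0.68 in this comparison and the pan leukocyte markers one of 0.45, and their part in the NLRC5 value was not tested.

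Duct ectasia, a dilated duct with retained secretion, gave 7 positive values against lobular hyperplasia. PSMB8 differed by 0.83 ± 0.338, B2M by 0.74 ± 0.344 and TAP1 by 0.72 ± 0.237 on the log2 scale. TAPBP had the lowest p of the 7, at 0.60 ± 0.155 (unadjusted p = 0.000232, adjusted p = 0.475 by edgeR). No member was called (0 of 7, beside 0% of all genes), 4 had an unadjusted p under 0.05, as did 6.29% of all genes, and DESeq2 called 0. Both types occurred together in 2 dogs only. In both of these 6 of the 7 genes were higher in duct ectasia, and NLRC5 was higher in 1. In duct ectasia the pan leukocyte markers had a median log2 difference of 0.99 and the class II genes one of 1.04, and their part was not tested.

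No member was called in the 6 remaining comparisons of types. Against lobular hyperplasia 0 of 7 were called in carcinoma (0.0893% of all genes), mixed carcinoma (0%), complex adenoma (0.536%), adenoma (0.0595%) and atypia (0%). Complex adenoma against adenoma also gave 0 of 7 (0.0476% of all genes). In these comparisons 0 of 7 genes had an unadjusted p under 0.05 by edgeR, and DESeq2 called 0 in each. IRF1 had the lowest value of the 7 genes in all 5 comparisons with lobular hyperplasia, such as -0.42 in adenoma, -0.43 in complex adenoma and -0.73 in atypia. NLRC5 was at 0.52 ± 0.285 in carcinoma against lobular hyperplasia (adjusted p = 0.424).

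In benign tumors against the normal class, IRF1 and TAP1 fell and the other 5 did not pass the test (2 of 7 called, beside 11.9% of all genes). IRF1 had a median of 78.2 CPM in benign tumors (31.4 to 243) and 130 CPM in the normal class (24.6 to 385). Its log2 change was -0.70 ± 0.186 (SE, adjusted p = 0.00911 by edgeR), and it was lower in benign tumors in 13 of 16 dogs. TAP1 had a median of 61.2 CPM in benign tumors (26.1 to 101) and 73.9 CPM in the normal class (27.3 to 131), with a log2 change of -0.40 ± 0.125 (adjusted p = 0.0257 by edgeR), lower in 11 of 16 dogs. The ranges of both genes overlapped widely between the classes.

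PSMB8 stood just outside the threshold at -0.46 ± 0.177 (adjusted p = 0.0699 by edgeR), lower in 12 of 16 dogs. DESeq2 called PSMB8, IRF1 and TAP1, beside 2991 of all 16806 genes. B2M (-0.22), NLRC5 (-0.24), TAPBP (-0.10) and LAP3 (-0.04) had smaller differences. Both edgeR calls ended when the sequencing run, the RNA integrity number or the adipocyte score was added to the fit, or when libraries of high muscle score were left out. IRF1 then stood between -0.61 and -0.47 and TAP1 between -0.42 and -0.31. The loss of calls was not particular to these 2 genes. With the adipocyte score in the fit 0 of all 16806 genes were called, against 2002 in the main fit, while TAP1 stood at -0.41. Without dog 13 both calls ended as well, at -0.55 for IRF1 and -0.35 for TAP1, beside 977 calls over all genes. The TAP1 call also ended without dog 18, 36, 66 or 89.

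The related genes did not move as 1 group in benign tumors. Of 19 peptide supply and loading genes, PSMB9 fell (log2 change -0.70 ± 0.196, adjusted p = 0.0133 by edgeR) and HSPA5, a chaperone of the endoplasmic reticulum, rose (0.39 ± 0.118, adjusted p = 0.0223). Of 21 genes of interferon gamma signalling and regulators 1 fell, NFYC, a subunit of a promoter-binding complex (-0.25 ± 0.0864). Of 23 interferon-induced genes 1 rose, OAS1, an antiviral enzyme (0.54 ± 0.19, adjusted p = 0.0498), and 0 of 8 class II genes were called. Of 13 T and NK cell markers 3 fell, CCL5 (-1.18), GZMK (-1.15) and LCK (-0.66), and the median of the 13 was -0.66, beside -0.24 over the 7 class I genes and -0.0034 over all genes. Of 8 endothelial markers 5 fell, led by EGFL7 (-1.09), TIE1 (-0.88) and PECAM1 (-0.82), and of 9 adipocyte markers 7 fell. The part of T and NK cell or endothelial content in the IRF1 and TAP1 values was not tested, while with the pan leukocyte score in the fit the IRF1 call held and that of TAP1 ended at -0.28.

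In malignant tumors against the normal class 0 of 7 genes were called by edgeR, beside 7.30% of all genes. IRF1 (-0.57 ± 0.224, adjusted p = 0.101) and PSMB8 (-0.52 ± 0.214, adjusted p = 0.119) had an unadjusted p under 0.05, as did 23.5% of all genes. DESeq2 called 1 of 7, IRF1, beside 2151 of all 16806 genes. IRF1 was lower in the malignant class in 13 of 16 dogs, with a median of 76.2 CPM in the malignant and 130 CPM in the normal class. PSMB8 was lower in 12 of 16 dogs, with a median of 46.4 CPM in the malignant and 71.9 CPM in the normal class. Without dog 54 both passed the test by edgeR, at log2 changes of -0.71 for IRF1 and -0.70 for PSMB8. Leaving out 1 dog at a time gave 288 to 1429 calls over all genes, against 1227 in the main fit.

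Of the peptide supply genes CANX, a chaperone of the heavy chain, rose in the malignant class (0.27 ± 0.0815, adjusted p = 0.03 by edgeR). Of the interferon gamma list NFYC (-0.36) and NFKB1 (-0.23), a subunit of NF-kappa-B, fell. Malignant against benign tumors gave 0 of 7 calls by edgeR, beside 0.910% of all genes, with 0 at an unadjusted p under 0.05 and 0 called by DESeq2. The widest of these differences was NLRC5 at 0.29 ± 0.202. The class comparisons share libraries with each other, and the malignant and benign values above are both set against the same normal libraries.

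**Figure D3:**
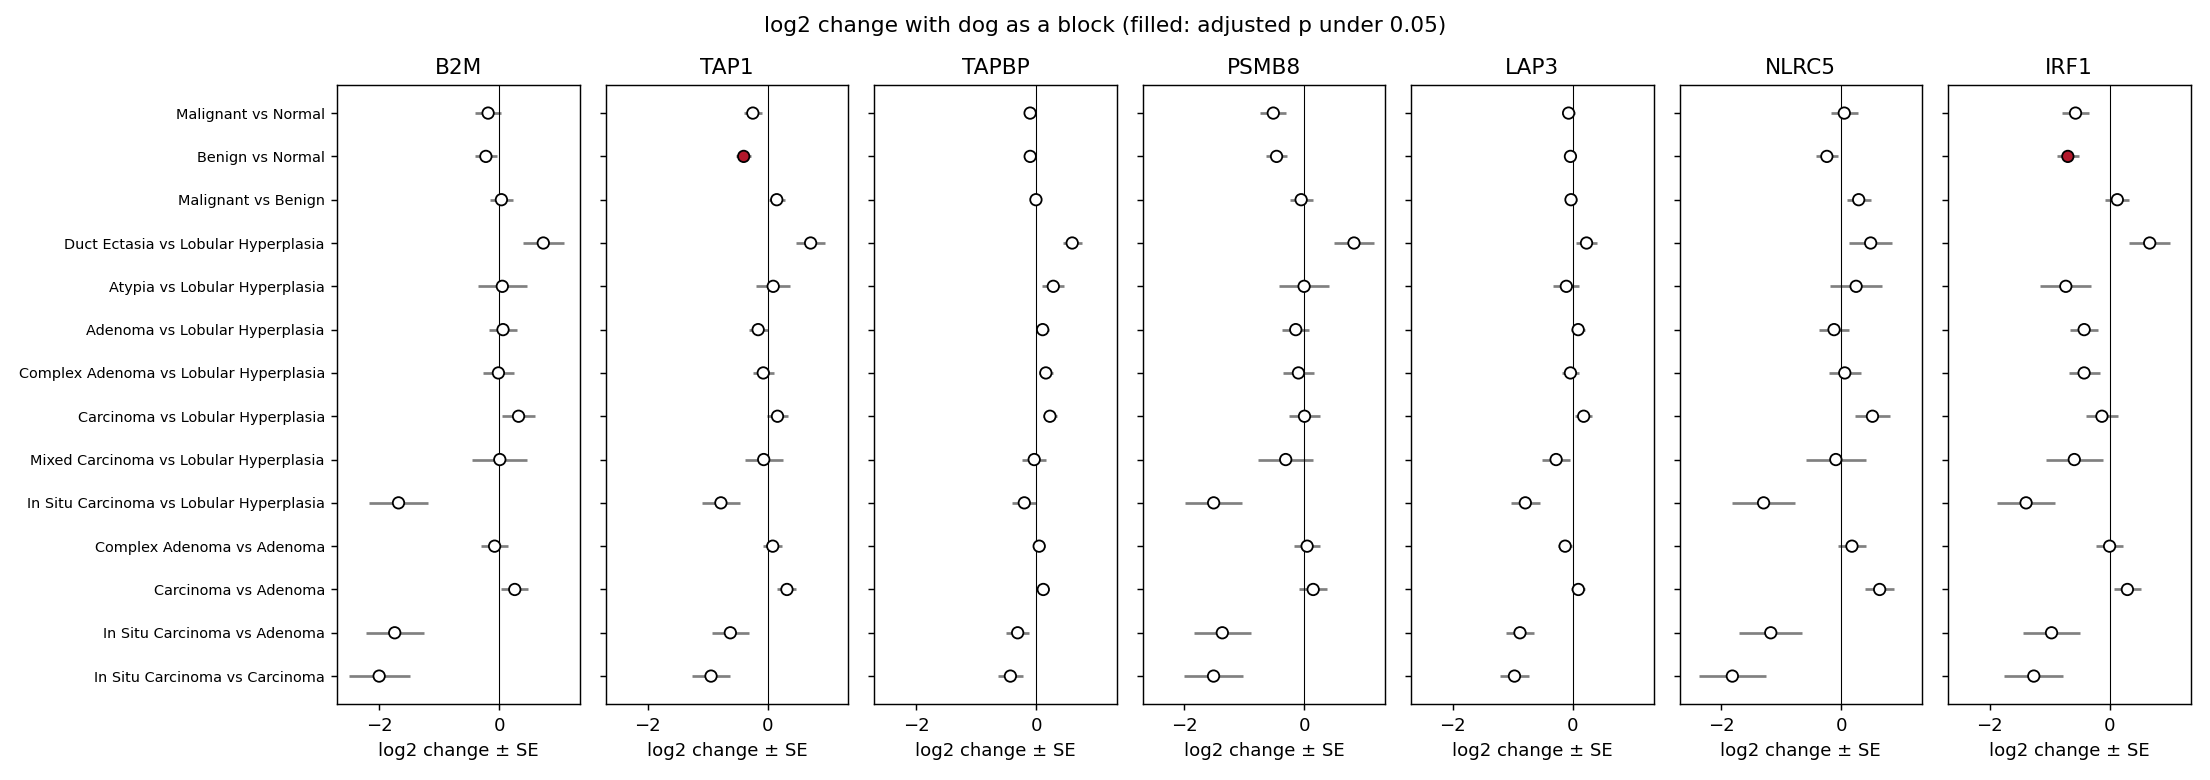
log2 change of each gene in all 14 comparisons, with bars of 1 SE, from the 2 edgeR fits with dog as a block. Filled points pass an adjusted p of 0.05, which holds for IRF1 (-0.70) and TAP1 (-0.40) in benign tumors against the normal class. The widest difference shown is that of B2M in situ against carcinoma (-2.0 ± 0.511).

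Between 21.1% (NLRC5) and 48.9% (TAPBP) of the sum of squares of log2 CPM lay between dogs, beside 17.0% of the degrees of freedom. The differences between dogs were not tested, and the shares of NLRC5, LAP3 and B2M (24.8%) lay nearest to that value. Dog 47 had the lowest geometric mean of the 16 dogs for 5 genes, TAP1 (36.8 CPM), TAPBP (94.7 CPM), PSMB8 (22.7 CPM), NLRC5 (27.2 CPM) and IRF1 (27.9 CPM). Dog 82 had the highest for TAP1 (95.2 CPM), PSMB8 (92.5 CPM), LAP3 (199 CPM) and IRF1 (177 CPM). The highest dog exceeded the lowest 6.34-fold for IRF1 and 1.67-fold for LAP3.

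Dog 47 gave 5 libraries, and IRF1 had 11.5 CPM in its carcinoma, 33.3 and 68.0 CPM in its adenomas and 24.6 and 25.9 CPM in its lobular hyperplasias. That carcinoma held the lowest PSMB8 (5.67 CPM) and IRF1 values of all 89 libraries. Its T and NK cell score was -2.92, the lowest of the series, and its RNA integrity number was 9.5. B2M behaved otherwise in this dog, with 1648 CPM in the carcinoma and 16105 CPM in 1 of the lobular hyperplasias, the third highest B2M value of the series. All libraries of dog 47 were made in a preparation that held no other dog, so that dog and preparation cannot be told apart.

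**Figure D4:**
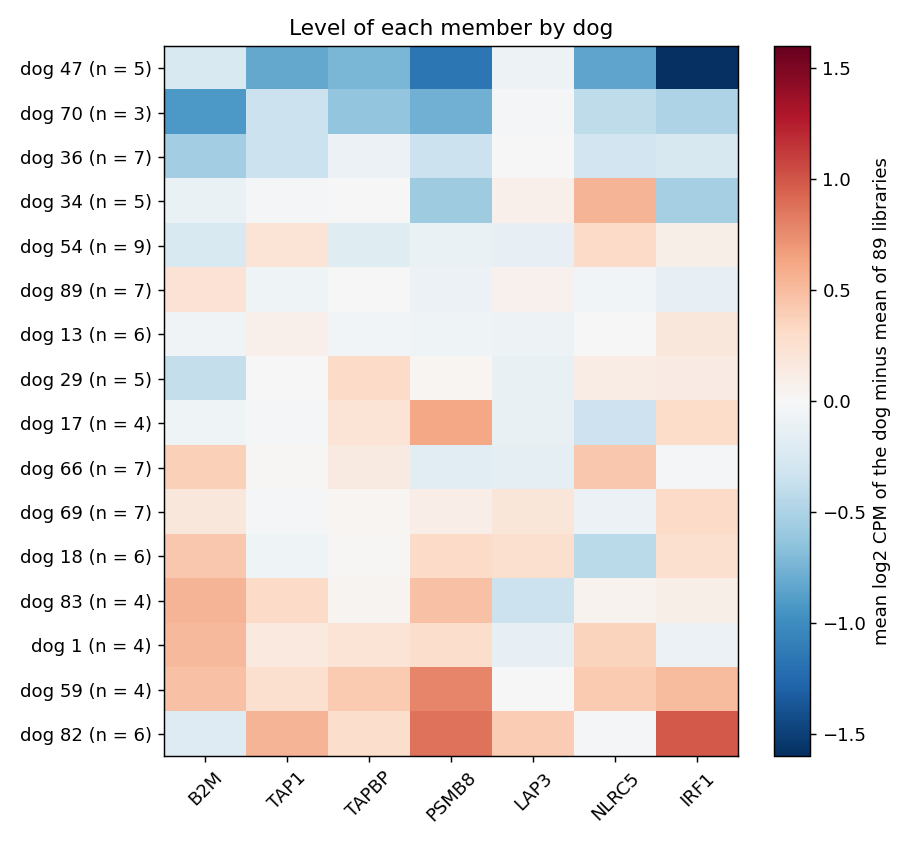
Mean log2 CPM of each gene in each of the 16 dogs minus the mean of the 89 libraries, dogs ordered by the mean over the 7 genes, with the number of libraries of each dog. Dog 47 is lowest for 5 genes (IRF1 27.9 CPM as a geometric mean) and dog 82 highest for 4 (IRF1 177 CPM).

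With dog means removed, all 21 pairs of the 7 genes were positively correlated over the 89 libraries, from 0.417 for TAPBP and LAP3 to 0.868 for PSMB8 and IRF1 (Pearson r, a description over libraries that share dogs and preparations). TAP1 and PSMB8 had r = 0.836, and TAP1 and NLRC5 r = 0.796. LAP3 had 0.417 to 0.585 with the others. With class means within dogs removed as well, the lowest pair was TAPBP with NLRC5 (0.258), and LAP3 had 0.303 to 0.498. Without the 3 in situ carcinomas the r of B2M with LAP3 was 0.409, against 0.552 with them, and that of PSMB8 with IRF1 was 0.857.

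**Figure D5:**
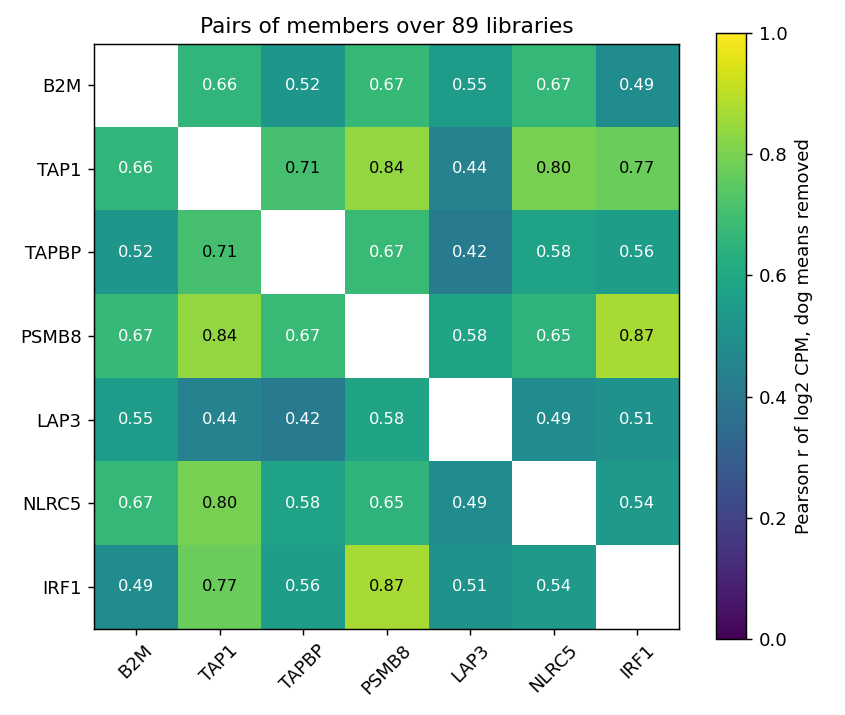
Pearson r of log2 CPM with dog means removed over 89 libraries, for each pair of the 7 genes. The highest values join PSMB8, IRF1, TAP1 and NLRC5 (PSMB8 with IRF1 0.868), and the values of LAP3 run from 0.417 to 0.585.

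The genes whose levels were most like the mean of the 7, among those with a symbol and over the same 89 libraries, began with PSMB9 (r = 0.89). XAF1 (0.813), an interferon-induced inhibitor of XIAP, and ZBP1 (0.807), a sensor of Z-form nucleic acids, came next. CD74 (0.791), the chemokine CCL5 (0.787), RARRES3 (0.762), the antiviral enzyme OAS2 (0.758), the class II chaperone subunit HLA-DMA (0.731), the antiviral deaminase APOBEC3H (0.727) and the T and NK cell marker CD2 (0.722) followed. Single genes had different neighbours. B2M was most like PARP15 (0.798) and OAS2 (0.787), PSMB8 like PSMB9 (0.931), NLRC5 like ZBP1 (0.78) and CD53 (0.775), a leukocyte tetraspanin, and LAP3 like CD40 (0.661). With class means within dogs removed as well, B2M was most like GBP6 (0.816), a guanylate-binding protein.

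The 7 genes also followed marker scores to different degrees within dogs. NLRC5 had r = 0.805 with the score of interferon-induced genes, against 0.363 for IRF1. With the T and NK cell score the r was 0.751 for PSMB8, 0.736 for NLRC5 and 0.385 for LAP3. With the luminal epithelium score it was 0.438 for PSMB8, 0.379 for IRF1 and -0.047 for NLRC5. With the RNA integrity number, over 81 libraries, it lay between -0.28 for IRF1 and 0.22 for B2M.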

How the data were processed

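The authors sequenced polyadenylated RNA (HiSeq2000, per the labels). The submitters' processing notes name HISAT2, FastQC and the build CanFam3.1, without versions. How reads were counted, with which annotation and strand setting, is not given in the sources used here. Reads of overlapping genes, such as the neighbours of TAP1 and PSMB8, cannot be told apart. The deposited count files hold read counts for 32496 genes by Ensembl identifier. A deposited table of scores, each with mean 0 over libraries, gave the symbols: a column was paired with the count row that had the same profile within dogs (r of at least 0.99, gap to the next row of at least 0.01, with 5 reads added). The 7 genes paired at r of 0.99986 or more, with the next row at 0.930115 or less. Of 11503 score columns, 11169 were not used. Rows without a gene held, as a mean, 37.4% (not aligned), 16.0% (no gene) and 0.078% (ambiguous) of reads and were left out.

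Tests used edgeR 4.0.16 in R 4.3.3 (TMM, filterByExpr with minimum count 10 and minimum total 15, glmQLFit with robust estimation, glmQLFTest), with dog as a fixed block, in 1 fit of the 3 classes and 1 of the 9 histology types. Log2 CPM used a prior count of 2. Benjamini-Hochberg adjustment ran over all 16806 genes at a threshold of 0.05. The fits were tested on simulated data. Libraries of a dog come from the same animal per the labels, which is the pairing the block uses. Whether 2 pieces of a class in a dog are separate lesions is not always stated, and p-values measure the spread between these samples. DESeq2 1.42.0, other covariates and left-out dogs and libraries served as alternatives. The members and lists were chosen with earlier results of these data known. Text names the 7 genes, the called genes of each list (at most 4 by absolute change) and the genes most alike. Scores are means over a list of log2 CPM centred per gene. The list of class I heavy chains had 0 measured genes. No sequences or positions are given.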

Additional observations from a re-analysis of the deposited data

Results flagged for a closer look

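Of 21 combinations of a gene and a type with 4 to 10 libraries, 4 held 1 library far from the others by Dixon's gap. The gap was taken on CPM, not on the log2 scale used elsewhere. Its limit flags about 1 in 20 of independent sets of normally distributed values. These genes are correlated and share libraries, so that this rate does not apply to the 21 combinations. Replicate 1 of atypia, from dog 18, held 3 of the 4. It had 13403 CPM of B2M, against 2982 to 4057 CPM in the 3 other atypias. It also had 131 CPM of TAP1, against 51.6 to 58.8 CPM, and 139 CPM of PSMB8, against 31.3 to 41.6 CPM. Its T and NK cell score was 1.81, the highest of the 4 atypias. Its pan leukocyte score (0.63) and macrophage score (0.21) were below those of replicate 2 of atypia (0.87 and 1.15). Its skeletal muscle score was 3.48, above the 3 used to mark libraries of high muscle score. Replicate 2 of duct ectasia, also from dog 18, had 293 CPM of LAP3, against 132 to 183 CPM in the 5 other duct ectasias, and this was the highest LAP3 value of all 89 libraries. Its pan leukocyte score was 1.83, the highest of the series, and its RNA integrity number was 6.5. Its skeletal muscle score was 7.24, also above 3. The part of these scores in the values was not tested.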

How the results depend on the processing

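Dog as the block is given by the labels. Without it, 1 of 7 genes was called in benign tumors against the normal class (2 with it) and 1 in situ against adenoma (0 with it). It changed no other count of called members. No log2 change of a called member changed sign. In benign tumors against the normal class, 0 were called with the sequencing run, the RNA integrity number or the adipocyte score in the fit or without libraries of high muscle score (chosen after seeing the data), and 1 with the pan leukocyte score. Leaving out 1 dog gave 0 to 3. In the malignant against the normal class DESeq2 called 1, the pan leukocyte score gave 2, and leaving out 1 dog gave 0 to 2. In situ against lobular hyperplasia DESeq2 called 1, and leaving out gave 0 to 2. In situ against adenoma DESeq2 called 2, the libraries with an RNA integrity number gave 2, that number as a covariate 1, and leaving out 0 to 2. In situ against carcinoma these gave 3, 3 and 1, and leaving out 0 to 3. The cause was not tested. The libraries with an RNA integrity number lack the dog 83 lesion. Counts over all genes moved more. Benign against normal had 2002 calls (0 to 2991 over the alternatives), malignant against normal 1227 (6 to 2151), malignant against benign 153 (0 to 531), and the 11 comparisons of types at most 90, with up to 859 under an alternative. Without dog 13 the first 2 had 977 and 288, and without dog 54 the last of the 3 had 2. With 3 in situ lesions, of which 1 dog also gave carcinoma, differences such as -1.51 for PSMB8 against carcinoma did not pass the adjusted threshold in edgeR.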
